A study of Mus musculus with 9 samples.

Results

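The comparison set the fracture callus of mice given carprofen in their resting phase against the tibia of mice that had neither a fracture nor drug. It took in 6 of the 9 arrays of the study, namely the 3 titled for hematoma of the resting group and the 3 titled for control. All 24367 rows of the gene-named table entered, which carry 22354 gene symbols, and where a symbol had more than 1 row, the one brightest on average over the 9 arrays stood for it. By the labels all mice were female and 2 months old. The methods name wild-type C57BL/6j for the first of the study's experiments, and the sources used here give no strain for the array mice themselves. Mice of the resting group had an open fracture of the right tibia held by an intramedullary pin, under isoflurane and buprenorphine, and then carprofen at 20 mg/kg under the skin for 3 days at ZT2 (zeitgeber time, hours after lights on). Control mice had no surgery, no pin and no drug. The callus was taken at ZT6 on day 3, 78 hours after surgery and over 30 hours after the last dose. A group dosed at ZT13 (the active group, 3 arrays) shared the fit and the control arrays. No group had a fracture without carprofen, so fracture, surgery and drug cannot be told apart here. The study speaks both of 9 mice and of RNA pools, so the spread behind each p-value is that between the RNA samples hybridised.

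Fracture opens the marrow and tears vessels and the muscle around the bone, and the clot that forms is invaded by neutrophils, then by macrophages and fibroblast-like progenitors that lay down a soft matrix before cartilage and woven bone replace it. Carprofen is a non-steroidal anti-inflammatory drug (NSAID). It blocks cyclooxygenase (COX), the enzyme that makes prostaglandin H2 from arachidonic acid, and prostaglandin E2 is known to support callus formation in mice.

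Values are the authors' normalized log2 signals, and a difference is the mean of the 3 resting arrays minus that of the 3 control arrays on that scale, with its standard error (SE) from limma. Of the 24367 rows, 2213 (9.08%) rose and 2440 (10.01%) fell at an adjusted p under 0.05, and 7327 had an unadjusted p under 0.05. Counts of list members given below are to be read beside these shares. Rises of at least 2-fold were seen in 646 rows and falls of that size in 712, while 96 and 129 rows moved at least 4-fold. The median difference over all rows was 0.02. The values of the 3 resting and 3 control arrays did not overlap in 2188 of the rows that rose and 2430 of those that fell, against 35.3% of all rows. An exact two-sided permutation test of 3 against 3 arrays cannot give a p under 0.10, so single genes were tested through the fit across all rows. Pairs of control arrays correlated at 0.988 to 0.991 and pairs of resting arrays at 0.983 to 0.990, while resting and control arrays correlated at 0.945 to 0.966. Osteoblast genes, as markers of the labelled tissue, averaged 7.94 to 8.21 in the control arrays and 8.0 to 8.89 in the resting arrays. Epidermal genes, which would mark skin in the sample, averaged 5.40 to 5.58 and 5.50 to 5.54. Levels of different genes were not set against each other, so these values do not settle how pure the tissue was.

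**Figure D1:**
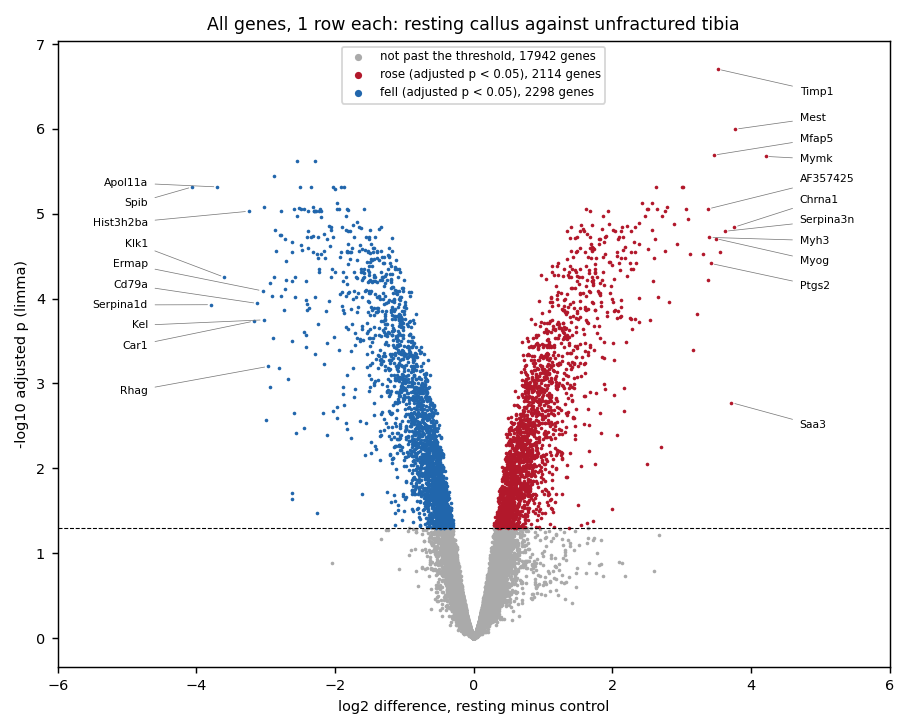
Log2 difference (resting minus control, horizontal axis) against -log10 of the adjusted p from limma (vertical axis), 1 point for each of 22354 genes. Red points rose (2114 genes) and blue points fell (2298 genes) at an adjusted p under 0.05, the dashed line. Of the labelled genes, Timp1 stands highest, and Tmem8c, drawn under its current name Mymk, farthest to the right.

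Genes of muscle repair held several of the largest rises in the table. When muscle is torn, satellite cells divide, turn on MyoD and myogenin, fuse into new fibres and for a time make embryonic forms of the contractile proteins and of the acetylcholine receptor. Of the 27 listed genes of muscle regeneration with a row, 22 rose and none fell, with a median difference of 1.71. In the 6 fits that each left out 1 array, the count stayed at 22. Tmem8c (now Mymk), which encodes the fusion protein myomaker, read 5.11, 4.84 and 5.35 in the control arrays and 9.26, 8.99 and 9.67 in the resting arrays. The groups did not overlap, and the difference was 4.21 (SE 0.19, 18.5-fold, adjusted p = 2.11e-06). Among called genes with no overlap it was the largest rise, with predicted genes and immunoglobulin or T cell receptor segments left out. Myog, the factor that drives myoblasts to differentiate, read 6.96, 6.47 and 6.67 in control and 10.19, 10.11 and 10.27 in resting arrays. It rose by 3.49 (SE 0.27, 11.2-fold, adjusted p = 1.96e-05). Myh3, the embryonic myosin heavy chain, went from 4.93, 4.85 and 5.39 to 8.56, 8.09 and 8.70, again with no overlap (3.40, SE 0.26, adjusted p = 1.9e-05). Myod1, which commits cells to muscle, rose less (1.27), as did the perinatal myosin Myh8 (1.71), cardiac actin Actc1 (1.79), which embryonic fibres share, and the late factor Myf6 (2.21). Pax7 and Myf5, which mark satellite cells and early myoblasts, differed by 0.11 and 0.10 and did not pass (adjusted p = 0.678 and 0.699). In this bulk tissue, more or fewer cells of a type and more or less RNA for each cell cannot be told apart.

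Several acetylcholine receptor genes rose, named here without a list of their own. Of the genes below, Chrna1, Chrng, Chrnd and Musk are members of the muscle regeneration list and were counted there. Adult fibres keep the acetylcholine receptor at the synapse and carry an epsilon subunit there, whereas fetal and denervated fibres spread it over the membrane with a gamma subunit. Chrna1, the alpha subunit, read 5.82, 4.64 and 5.55 in control and 9.08, 8.85 and 9.35 in resting arrays, a difference of 3.76 (SE 0.27, 13.5-fold, adjusted p = 1.44e-05). Chrng, the fetal gamma subunit, rose by 1.88, Chrnd by 2.03, Chrnb1 by 1.72, and Musk, the kinase that gathers the receptor, by 1.75. The adult epsilon subunit, Chrne, differed by 0.19 and did not pass (adjusted p = 0.518). The promoters of Chrna1 and Chrng are shown because both genes stood among the risen members and hold the E-box CAGCTG, a form of the CANNTG box that MyoD and myogenin bind. They run from 250 bases before the RefSeq start to 50 after it on GRCm38.p6, at chr2:73580289-73580588 (minus strand) and chr1:87205561-87205860 (plus strand), with each CAGCTG in capitals.
Chrna1: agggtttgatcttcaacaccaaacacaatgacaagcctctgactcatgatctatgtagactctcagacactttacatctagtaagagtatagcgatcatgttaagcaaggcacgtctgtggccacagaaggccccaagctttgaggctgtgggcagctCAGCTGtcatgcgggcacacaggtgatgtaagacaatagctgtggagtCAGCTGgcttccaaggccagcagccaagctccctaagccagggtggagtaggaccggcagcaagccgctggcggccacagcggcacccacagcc
Chrng: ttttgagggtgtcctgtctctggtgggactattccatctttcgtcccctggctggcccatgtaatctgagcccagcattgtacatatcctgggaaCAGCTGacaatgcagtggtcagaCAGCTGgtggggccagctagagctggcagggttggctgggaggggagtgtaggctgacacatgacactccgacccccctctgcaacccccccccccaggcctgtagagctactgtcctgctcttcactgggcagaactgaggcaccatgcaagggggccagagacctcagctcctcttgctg
The boxes begin at -92 and -44 in Chrna1 and at -155 and -132 in Chrng, counted from the start. CAGCTG, which reads the same on both strands, was found in the promoters of 7 of the 19 list members with a promoter sequence (36.8%), and in 18.3% of all 27025 genes with promoters of this length. Of those 7, all but Igfn1 (0.59) rose. A match is a description of the letters only.

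Adult muscle RNA was already high in the unfractured samples, although their label names tibia bone only. The 42 genes of the adult contractile and calcium machinery averaged 9.54 to 9.93 in the control arrays and up to 10.33 in the resting arrays, which lay above all controls, and their part in the rise of the regeneration genes was not tested. Of these 42 genes, 13 rose and 1 fell, with a median of 0.29. Acta1, adult skeletal actin, read 12.92, 12.70 and 12.79 in control and 13.10, 13.20 and 12.98 in resting arrays. The resting arrays were higher, but the difference of 0.29 did not pass (adjusted p = 0.118), nor did those of the fast-fibre genes Myh4 (0.16), Ckm (0.16), Tnni2 (0.21) and Atp2a1 (0.09). The risen members with the largest differences were the troponins of slow fibres. Tnnc1, slow troponin C, read 7.72, 6.83 and 8.32 against 10.37, 9.98 and 10.16 (2.55, SE 0.29, adjusted p = 0.000178). Tnni1 rose by 2.12 and Tnnt1 by 1.72, while the slow myosin genes Myh7 (0.29), Myl2 (0.15) and Myl3 (0.09) did not pass. Outside this list, sarcolipin (Sln, 3.38), which slows the calcium pump, and Ankrd1 (3.31), a titin-bound stress protein, also rose. Of 26 genes of atrophy and denervation, 11 rose and 3 fell (median 0.26). Chrna1, Chrng and Myog are among these rises and were already counted in the muscle regeneration list. Both ubiquitin ligases that define the atrophy program rose, Fbxo32 by 1.17 and Trim63 by 1.17, and so did the metallothioneins Mt2 (2.39) and Mt1 (1.59). None of 39 genes of the respiratory chain and the TCA cycle passed in either direction (median 0.06).

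Several imprinted genes of embryonic growth rose, and others did not pass. An imprinted gene is read from the copy of 1 parent only, and many of them are active in fetal muscle and bone and fall silent after birth. Mest, an enzyme-like protein read from the paternal copy, read 6.24, 5.90 and 6.12 in the control arrays and 9.88, 9.67 and 10.01 in the resting arrays. The groups lay far apart, and the rise of 3.77 (SE 0.15, 13.6-fold, adjusted p = 1.01e-06) was of the size seen for the muscle genes. H19, a maternal non-coding RNA, rose by 2.94, the growth factor receptor adaptor Grb10 by 2.15 and the zinc finger factor Plagl1 by 1.0. Igf2, the fetal growth factor beside H19, differed by 0.40 and did not pass (adjusted p = 0.0763). These genes come from a list of limb and embryonic growth genes, of which 15 of 37 rose, none fell and 22 did not pass (median 0.31). Imprinted genes were not listed separately, and these were picked with their values known.

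A domain on mouse chromosome 12 between Dlk1 and Dio3 showed rises among its small RNAs. Its paternal copy makes the proteins DLK1, RTL1 and DIO3, and its maternal copy makes long RNAs (Meg3, Rian, Mirg) that carry small nucleolar RNAs and a large group of microRNAs. This domain was singled out after its values were seen, so its counts are a description. RefSeq placed 103 genes there, of which 59 had a row: 16 rose, none fell, and 51 differences were above 0, with a median of 0.28. The protein-coding genes did not pass: Dlk1 (0.04), Rtl1 (-0.02) and Dio3 (0.21). Of 7 small nucleolar RNA rows 4 rose, and of 45 microRNA rows 10 rose. The 478 microRNA rows from elsewhere in the genome gave 9 rises and 10 falls, with a median of -0.01. Leaving out 1 array at a time gave 13 to 20 rises in the domain and no fall. Many microRNA rows were dim. Dropping the lowest 40% of all rows left 18 rows of the domain, of which 9 rose in the fit of all rows and 11 when the kept rows were refitted and adjusted anew.

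The 16 rows that rose in the domain had widely different sizes of change. AF357425, a small nucleolar RNA of the box C/D kind, read 5.13, 5.15 and 5.70 in control and 8.40, 8.75 and 8.97 in resting arrays, a rise of 3.38 (SE 0.22, adjusted p = 8.78e-06). Another small nucleolar RNA, AF357355, rose by 2.03, DQ267102 by 1.13 and DQ267100 by 0.68. Mir493 read 4.88, 5.27 and 5.09 against 7.91, 7.46 and 7.65 (2.59, SE 0.23, adjusted p = 3.32e-05), and Mir453 read 6.19, 5.88 and 6.10 against 8.07, 8.52 and 8.53 (2.32, SE 0.19). Neither row overlapped between the groups. Mir544 was dimmer, at 3.33, 3.0 and 3.41 in control and 4.75, 5.28 and 5.26 in resting arrays (1.85). Meg3 itself went from 6.15, 5.79 and 5.43 to 7.06, 7.04 and 7.23, a rise of 1.32 (SE 0.16, adjusted p = 0.000278), and Mirg rose by 0.51. Mir485 (1.28), Mir329 (1.05), Mir3070b (1.05), Mir341 (0.89), Mir679 (0.75), Mir377 (0.63) and Mir1193 (0.44) completed the microRNA rows. When 1 array was left out, some of these calls were lost. Mirg lost its call (adjusted p 0.0604 without control array 2 and 0.0734 without resting array 3). Mir679 lost its call (adjusted p 0.0546 without control array 2, 0.138 without control array 3, 0.116 without resting array 2 and 0.133 without resting array 3). Mir1193 lost its call (adjusted p 0.0969 without control array 2, 0.0773 without control array 3, 0.0744 without resting array 1 and 0.0801 without resting array 2). A row named for a microRNA does not separate the mature form from the precursor or its host RNA, which was not tested. The mature sequences of the 4 microRNA rows with the largest rises, from RefSeq (GRCm38.p6), are given with the seed, bases 2 to 8, in capitals, because the seed is the stretch that mainly pairs with target messages.
mmu-miR-493-5p: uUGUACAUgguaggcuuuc
mmu-miR-493-3p: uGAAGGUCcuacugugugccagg
mmu-miR-453: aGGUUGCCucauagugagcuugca
mmu-miR-544-5p: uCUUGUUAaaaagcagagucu
mmu-miR-544-3p: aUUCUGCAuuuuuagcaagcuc
mmu-miR-485-3p: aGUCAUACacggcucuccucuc
The 10 risen rows have 18 mature sequences in RefSeq with 18 different seeds, so no seed was shared between them. The first lies at chr12:109580243-109580261 (plus strand).

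Most genes of the repair matrix rose. Of 18 fibrillar and repair collagens 17 rose and none fell (median 1.18), of 26 genes that fold, process and crosslink collagen 21 rose (median 1.40), and of 36 matricellular and adhesive glycoproteins 30 rose (median 1.21). Their mean level went from 7.38 to 7.58 in the control arrays to 8.62 to 9.08 in the resting arrays for the collagens. Type III collagen, Col3a1, the early wound collagen, rose by 3.02 and Col12a1 by 2.18. Col1a1, the main bone collagen, read 11.51, 11.44 and 11.48 in control and 12.73, 11.94 and 11.99 in resting arrays. Resting array 1 stood highest, and the rise was 0.74 (SE 0.22, adjusted p = 0.0343). When 1 array was left out, Col1a1 lost its call (adjusted p 0.0776 without control array 1, 0.0959 without control array 2, 0.0924 without control array 3 and 0.0791 without resting array 1). Lox, which crosslinks collagen, rose by 3.07, periostin (Postn) by 3.09, the microfibril protein Mfap5 by 3.46, fibulin 2 (Fbln2) by 3.0, tenascin N (Tnn) by 2.38 and Cthrc1 by 2.75. Fibroblast and myofibroblast markers gave 15 rises of 18 (median 1.23), among them podoplanin (Pdpn, 2.71) and Lrrc15 (2.17). Tendon genes gave 10 of 14, with thrombospondin 4 (Thbs4, 2.18), tenomodulin (Tnmd, 2.0) and the tendon factor scleraxis (Scx, 1.20). The tendon list shares Thbs4, Fmod, Tnc and Dcn with the glycoprotein list, so its count is not separate from that one. It also shares Col11a1 and Comp with the cartilage list and Egr1 with the AP-1, EGR and stress factors. In the secretory pathway 17 of 35 genes rose and none fell (median 0.46). These included the receptor Kdelr3 (2.39), the collagen-cargo coat gene Sec24d (1.44) and the factor Creb3l1 (1.81), while the chaperones Hspa5 (0.31) and Hsp90b1 (0.18), which mark the unfolded protein response, did not pass.

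**Figure D2:**
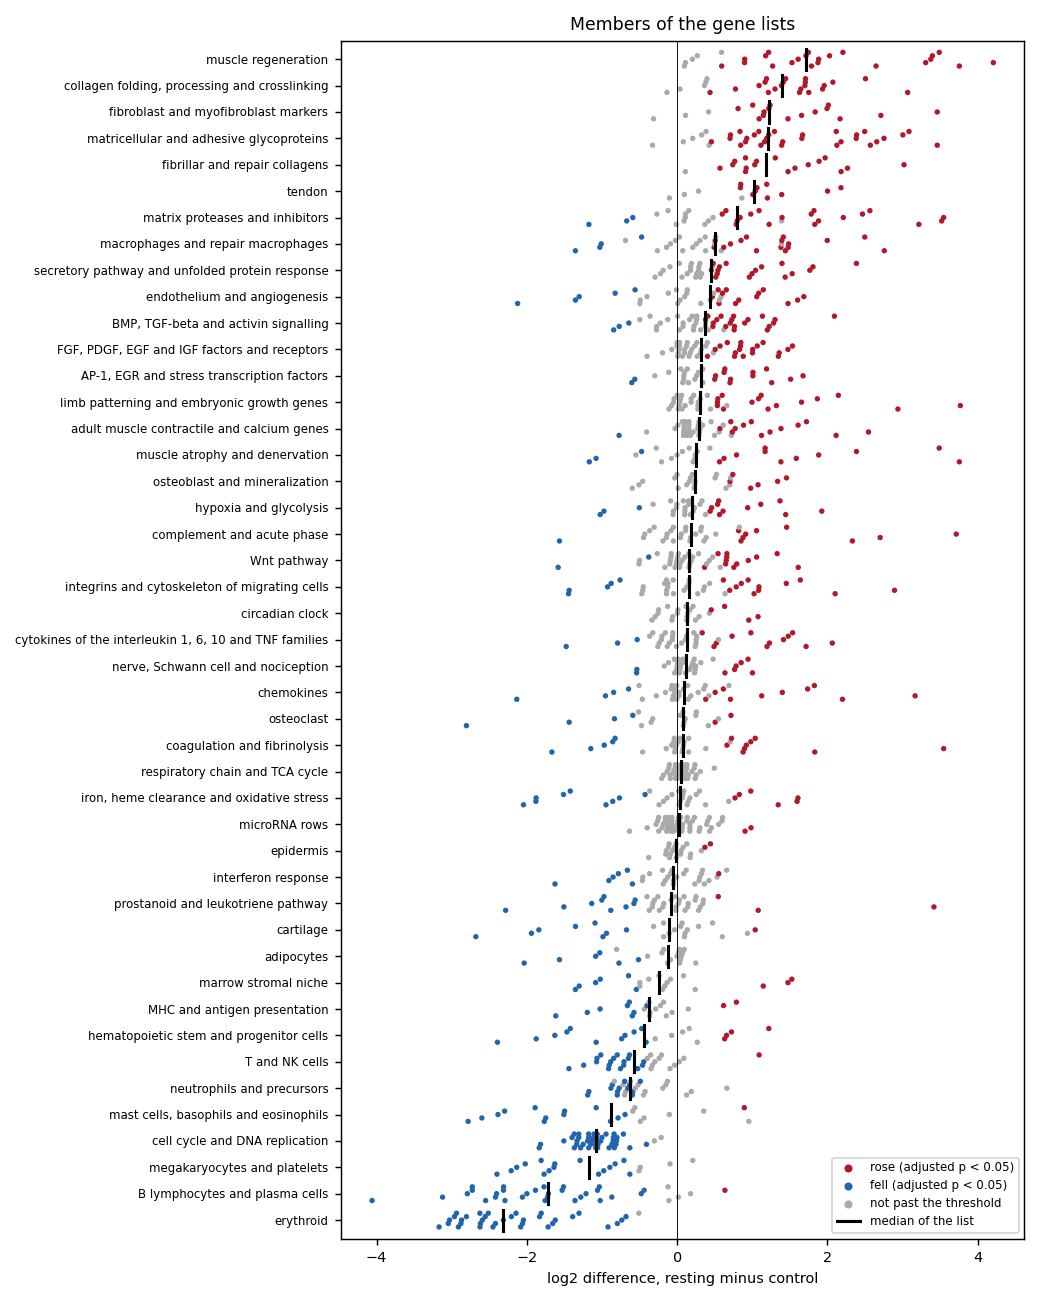
Differences of the members of each gene list (horizontal axis, log2, resting minus control), 1 line of points for each of 45 lists, with the median as a black bar. Red points rose and blue points fell at an adjusted p under 0.05 in limma. The medians run from -2.31 for erythroid genes to 1.71 for muscle regeneration genes.

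Part of the matrix-degrading enzymes and their inhibitors rose. Of 33 genes, 19 rose, 3 fell and 11 did not pass, with a median of 0.80. Among the last were Timp3 (-0.27), Mmp11 (0.11) and cathepsin K (Ctsk, 0.11). Without control array 3 or without resting array 3, 1 gene fell. Timp1, a tissue inhibitor of matrix metalloproteinases, read 6.05, 6.25 and 5.99 in control and 9.52, 9.60 and 9.73 in resting arrays. The arrays of each group lay close together, and the rise of 3.52 (SE 0.11, 11.5-fold, adjusted p = 1.98e-07) had the smallest p of all genes. Mmp3, stromelysin 1, which cuts proteoglycans and activates other metalloproteinases, read 5.0, 4.83 and 4.80 in control and 7.10, 8.28 and 8.91 in resting arrays. It rose by 3.22 (SE 0.36, adjusted p = 0.00015) and varied more among resting arrays than Timp1 did. Its promoter, at chr9:7445572-7445871 (plus strand, GRCm38.p6, RefSeq), is shown with the site TGANTCA, to which AP-1 binds, in capitals, because AP-1 genes are described below.
Mmp3: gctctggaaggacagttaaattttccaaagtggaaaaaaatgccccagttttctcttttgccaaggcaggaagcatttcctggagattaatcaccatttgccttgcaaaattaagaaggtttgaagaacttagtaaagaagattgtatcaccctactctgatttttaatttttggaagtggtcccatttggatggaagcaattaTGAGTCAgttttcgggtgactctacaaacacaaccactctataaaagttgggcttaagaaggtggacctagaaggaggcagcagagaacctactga
The site begins at -46. TGANTCA, searched on both strands, was present in 6 of the 22 list members with a promoter sequence (27.3%) and in 8.97% of all 27025 genes. Of those 6, Mmp3 rose, while Mmp10 (0.37), Mmp12 (1.39), Mmp13 (0.09), Adam19 (-0.12) and Plaur (0.15) did not pass. Of 28 AP-1, EGR and stress factors, 12 rose and 2 fell (median 0.31), including Fos (1.26), Egr1 (1.01) and Atf3 (0.70).

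Bone genes moved little and unevenly at day 3, and cartilage genes fell in part. Of 24 osteoblast and mineralization genes 6 rose and none fell, with a median of 0.24. The count was 3 without control array 1 or control array 3, and none passed in the t-test of the methods after adjustment. Ibsp, bone sialoprotein, read 10.14, 10.88 and 10.44 in control and 12.56, 11.48 and 11.78 in resting arrays (1.46, SE 0.27, adjusted p = 0.00316). Sp7, the osteoblast factor osterix, read 8.24, 8.59 and 8.39 against 10.25, 8.85 and 9.35 (1.08, adjusted p = 0.0208). When 1 array was left out, Sp7 lost its call (adjusted p 0.0723 without control array 1 and 0.0667 without control array 3). Ifitm5, found in mineralizing osteoblasts, read 6.48, 6.83 and 6.59 against 8.79, 7.46 and 7.66 (1.34). In all 3 genes resting array 1 was the highest, and the groups did not overlap. Runx2 (0.16), Alpl (0.71) and the osteocyte genes Dmp1 (0.24) and Sost (-0.51) did not pass. Of 23 cartilage genes 1 rose and 8 fell (median -0.11), and 5 fell without control array 3. Mia, a secreted cartilage protein, read 8.50, 8.58 and 8.57 in control and 5.32, 5.19 and 7.09 in resting arrays, with resting array 3 nearest to the controls (-2.68, SE 0.40, adjusted p = 0.000895). Lect1, chondromodulin (-1.94), Chad (-1.84) and Col10a1 (-1.35), the collagen of hypertrophic cartilage, fell, while Acan (0.60) and Sox9 (0.47) did not pass. Among 19 osteoclast genes 2 rose and 4 fell (median 0.08), the rises at about the share of all rows (9.08%). The count of rises was 1 without control array 1, control array 3, resting array 2 or resting array 3. Car2 fell by 2.80 and Itgb3 fell by 1.44, both also made by blood cells, and the osteoclast phosphatase Acp5 fell by 0.83. Ctsk did not pass, and Tnfrsf11a, the receptor RANK, rose by 0.72.

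The COX genes, the targets of the drug, moved in opposite directions over 30 hours after the last dose. Ptgs2, which encodes the inducible COX-2, read 5.01, 4.64 and 5.44 in the control arrays and 8.95, 8.12 and 8.27 in the resting arrays. It rose by 3.42 (SE 0.31, 10.7-fold, adjusted p = 3.85e-05). Ptgs1, which encodes the constitutive COX-1 found in platelets and many resting cells, read 8.08, 8.08 and 8.09 in control and 7.46, 6.86 and 6.92 in resting arrays. It fell by 1.0 (SE 0.16, adjusted p = 0.00151) with no overlap. The platelet and megakaryocyte genes fell on the same arrays (16 of 20, mean level 8.59 to 8.88 in control and 7.34 to 7.56 in resting arrays), and their part in the fall of Ptgs1 was not tested. In the active group the same genes stood 3.21 and -1.20 from control, and both comparisons share the control arrays.

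Of the 37 genes of the prostanoid and leukotriene pathway with a row 3 rose, 9 fell and 25 did not pass (median -0.08), against 9.08% and 10.01% of all rows. The synthases of prostaglandin E2 gave 0.15 (Ptges), 0.09 (Ptges2) and 0.29 (Ptges3), those of prostaglandin D2 0.02 (Ptgds) and 0.10 (Hpgds), and that of prostacyclin 0.34 (Ptgis), none past the test. Tbxas1, thromboxane synthase, another platelet enzyme, fell by 0.97. The receptors of prostaglandin E2 did not pass either, at 0.31 (Ptger1), -0.37 (Ptger2), -0.33 (Ptger3) and 0.03 (Ptger4). Slco2a1, which carries prostaglandins into cells for breakdown, rose by 1.08 (adjusted p = 0.000938), and the degrading enzyme Hpgd differed by -0.24. On the lipoxygenase side, Alox12 (platelet type) fell by 2.28, Alox15 (eosinophils and macrophages) fell by 1.51 and the leukotriene receptor Cysltr2 fell by 1.14. Alox5, the first enzyme of leukotriene synthesis, fell by 0.88 and Lta4h fell by 0.57, while another leukotriene receptor, Cysltr1, rose by 0.55. The last 3 calls were lost when 1 array was left out. Alox5 lost its call (adjusted p 0.0631 without control array 1, 0.131 without control array 3, 0.12 without resting array 2 and 0.0938 without resting array 3). Lta4h lost its call (adjusted p 0.0621 without control array 2, 0.128 without control array 3, 0.122 without resting array 2 and 0.0966 without resting array 3). Cysltr1 lost its call (adjusted p 0.134 without control array 1, 0.0917 without control array 2, 0.146 without resting array 2 and 0.0634 without resting array 3).

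**Figure D3:**
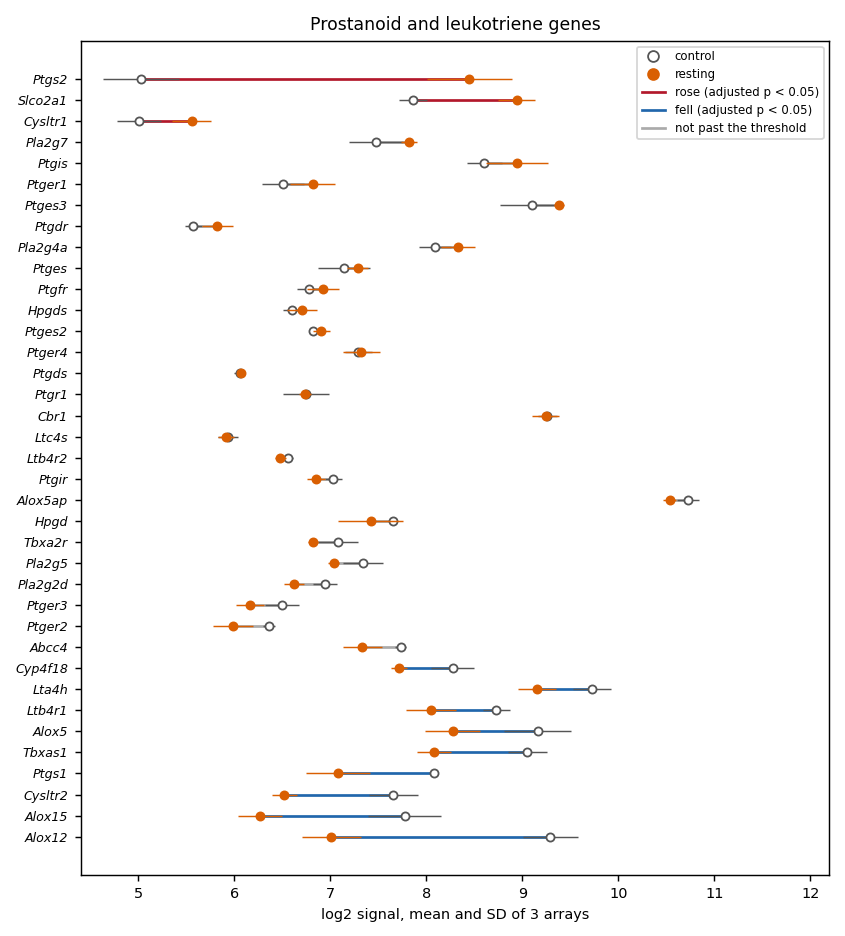
Mean log2 signal (horizontal axis) of the 37 prostanoid and leukotriene genes in control (open) and resting (orange) arrays, with thin bars for the SD of 3 arrays. Joining lines are red for the 3 genes that rose, blue for the 9 that fell and grey for the rest. Ptgs2 has the largest rise and Alox12 the largest fall.

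Macrophage genes rose in part, and neutrophil genes fell in part. Of 36 macrophage genes, 16 rose and 4 fell, with a median of 0.50, the falls at about the share of all rows (10.01%). The rises numbered 12 without control array 1, control array 3 or resting array 3, and 6 in the t-test of the methods after adjustment. The falls numbered 2 without control array 2, control array 3 or resting array 2. Cd68, Csf1r, C1qa and Spp1 rose, but each lost its call in several fits that left out 1 array. Without control array 3 their adjusted p in limma was 0.0874, 0.0967, 0.109 and 0.16. Folr2, a folate receptor of resident macrophages, read 6.13, 6.68 and 6.23 in control and 8.52, 9.31 and 9.49 in resting arrays (2.76, SE 0.23, adjusted p = 2.72e-05). Arg1, arginase of repair macrophages, read 6.35, 6.23 and 6.0 against 7.84, 8.06 and 10.17 (2.50, adjusted p = 0.00879). Neither gene overlapped between the groups, and in Arg1 resting array 3 stood well above the other two. Ms4a7 (2.0), the lysosomal protease Lgmn (1.48), Gpnmb (1.48) and the lipid receptor Trem2 (1.41) rose. Retnla, which the study ties to the macrophage form of tissue repair, fell. When 1 array was left out, Retnla lost its call (adjusted p 0.104 without control array 2, 0.0822 without control array 3, 0.0639 without resting array 1 and 0.118 without resting array 2). Spic, the factor of red pulp and marrow macrophages that recycle iron, fell by 1.03, and Vcam1, which such macrophages and the marrow stroma carry, fell by 1.35. Neutrophil genes went the other way: of 28, none rose and 13 fell (median -0.63), with 3 falls without control array 3, 5 without resting array 2 and 3 without resting array 3. Mmp8, neutrophil collagenase, fell by 1.17, while S100a8 (-0.13) and Elane (-0.70) did not pass.

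Several chemokines that attract monocytes rose. Of 37 chemokines 10 rose and 4 fell (median 0.08), the falls at about the share of all rows (10.01%). There were 6 rises without control array 2, control array 3 or resting array 2. Ccl8 read 6.95, 5.72 and 5.81 in control and 8.55, 9.58 and 9.85 in resting arrays (3.17, SE 0.42, adjusted p = 0.000401). Its monocyte-attracting relatives Ccl2 (2.20) and Ccl7 (1.83) also rose, and the neutrophil attractant Cxcl1 differed by 0.35 and did not pass (adjusted p = 0.183). The neutrophil attractants Cxcl2, Cxcl3 and Cxcl5 rose, but each lost its call in several fits that left out 1 array. Without control array 3 their adjusted p in limma was 0.163, 0.154 and 0.115. Cxcl12, which holds blood progenitors in the marrow, fell by 0.65. Of 37 cytokine and receptor genes 12 rose and 3 fell. Il6 (0.98), Il33 (1.20) and the oncostatin M receptor Osmr (1.48) rose, Il1a fell by 1.48 (adjusted p = 3.4e-05), and Il1b (-0.06) and Tnf (-0.20) did not pass. Of 33 complement and acute phase genes 9 rose, 1 fell and 23 did not pass (median 0.18). Saa3, the serum amyloid A of inflamed tissues, read 5.75, 5.45 and 5.14 in control and 8.24, 10.52 and 8.73 in resting arrays, where array 2 was highest (3.71, SE 0.62, 13.1-fold, adjusted p = 0.00168). Complement factor B (Cfb) rose by 1.46 and the receptor C3ar1 by 2.33, and adipsin (Cfd), made by fat cells, fell by 1.57. Outside this list, the protease inhibitor Serpina3n rose by 3.62. Signal of Serpina3n and Orm2 (2.70) may be shared with close relatives of these gene families on the array.

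Genes of blood formation fell together. Of 35 erythroid genes 34 fell, with a median of -2.31, and the count was 34 in each of the 6 fits that left out 1 array. Their mean level was 10.10 to 10.44 in the control arrays and 7.93 to 8.24 in the resting arrays. Alas2, which starts the making of heme in red cell precursors, read 10.63, 10.89 and 10.57 in control and 8.0, 8.39 and 7.82 in resting arrays (-2.62, SE 0.33, adjusted p = 0.000318), and stood -4.0 from control in the active group. The red cell membrane genes Ermap (-3.05), Kel (-3.03) and Rhag (-2.96), carbonic anhydrase 1 (Car1, -3.17) and the erythroid factor Klf1 (-2.62) fell. Alpha globin Hba-a2, which mature red cells in blood also hold, read 13.64, 13.71 and 13.61 against 12.95, 12.95 and 12.67 and fell by 0.80, less than the precursor genes, though its near-identical copy cannot be separated on the array and its signal was near the top of the scale. The promoter of Alas2, at chrX:150547167-150547466 (plus strand, GRCm38.p6, RefSeq), holds AGATAA on the reverse strand, a form of the site of the erythroid factor GATA1, in capitals as TTATCT.
Alas2: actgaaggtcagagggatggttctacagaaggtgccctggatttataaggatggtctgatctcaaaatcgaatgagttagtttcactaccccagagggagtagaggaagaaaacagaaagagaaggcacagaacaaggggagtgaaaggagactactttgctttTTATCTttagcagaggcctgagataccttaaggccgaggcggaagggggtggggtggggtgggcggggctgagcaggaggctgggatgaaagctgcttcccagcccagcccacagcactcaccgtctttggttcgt
It begins at -86. AGATAA, searched on both strands, was present in 8 of the 23 erythroid members with a promoter sequence (34.8%) and in 12.7% of all 27025 genes.

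The other marrow lineages fell as well. Of 34 B cell and plasma cell genes 29 fell and 1 rose (median -1.72). Spib, a B cell transcription factor, read 9.42, 9.20 and 9.56 in control and 5.74, 5.06 and 5.20 in resting arrays. It fell by 4.06 (SE 0.23, adjusted p = 4.83e-06). Among called genes with no overlap this was the largest fall, with predicted genes and immunoglobulin or T cell receptor segments left out. Cd79a, the signalling chain of the B cell receptor, fell by 3.12 and Rag1, which cuts antigen receptor genes in precursors, fell by 2.79. Of 20 megakaryocyte and platelet genes 16 fell (median -1.17), such as Itga2b (-1.77), Ppbp (-2.13) and Clec1b (-2.40), while Pf4 (-0.51) did not pass. Mast cell, basophil and eosinophil genes gave 13 falls and 1 rise of 21 (median -0.89). The falls included the eosinophil granule genes Epx (-2.38) and Prg2 (-2.60) and the eotaxin receptor Ccr3 (-2.30), and the rise was the mast cell tryptase Tpsb2 (0.89). Among T and NK cell genes 18 of 30 fell and 1 rose (median -0.58). The gene that rose was Thy1 (1.09), which fibroblasts also carry. Stem and progenitor genes gave 11 falls and 4 rises of 20. Gfi1b (-2.39), Myb (-1.88) and Kit (-1.08) fell. Among the rises were Cd34 (1.22) and Procr (0.72), which vessels also carry, and the list member Mecom. When 1 array was left out, Mecom lost its call in limma. Its adjusted p was 0.106 without control array 2, 0.053 without control array 3, 0.0758 without resting array 2 and 0.112 without resting array 3.

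Cell cycle genes fell on the same arrays. Of 44 genes 42 fell and none rose (median -1.08), with a mean level of 8.81 to 9.09 in control and 7.79 to 7.95 in resting arrays. Mki67 fell by 1.37, Ccnb2 fell by 1.19 and Top2a fell by 1.18. The part of dividing blood precursors, whose genes fell on the same arrays, was not tested. Iron and redox genes moved both ways, with 6 rises and 9 falls of 33. The transferrin receptor Tfrc (-2.04), the iron exporter Slc40a1 (-1.88), the heme breakdown enzyme Blvrb (-1.88) and the glutathione synthesis genes Gclc (-1.51) and Gclm (-1.42) fell. Extracellular superoxide dismutase Sod3 (1.61) and the peroxidases Gpx7 (1.60) and Gpx8 (1.35) of the secretory pathway rose, and heme oxygenase Hmox1 (0.38) did not pass (adjusted p = 0.323). Other large falls were in multigene families whose probes may be shared. Serpina1d read 7.61, 8.29 and 7.71 in control and 3.45, 3.50 and 5.29 in resting arrays (-3.79), with resting array 3 apart from the other two. Apol11a (-3.70), Klk1 (-3.60) and Hist3h2ba (-3.24) also fell.

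Some genes of endothelium and vessel growth rose, while others, Esm1 and a gene of marrow sinusoids among them, fell. Of 33 endothelial genes 13 rose and 5 fell (median 0.44), with 8 rises without control array 3. Apelin (Apln, 1.69) and its receptor (Aplnr, 1.60), Angpt2 (1.15) and the junction protein Cdh5 (1.06) rose, and Vegfa differed by 0.10 and did not pass (adjusted p = 0.737). Esm1, a member of the same list, fell by 1.30 (adjusted p = 0.000186). Stab2, a scavenger receptor of the sinusoids of marrow and liver, fell by 2.12 (adjusted p = 0.000335), while its relative Stab1, which macrophages also make, rose by 1.48. The marrow niche list gave 3 rises and 6 falls of 19. Adiponectin (Adipoq, -1.08) fell, and nestin (Nes, 1.53) and the mesenchymal receptor Pdgfra (1.47) rose. Of 21 fat cell genes none rose and 6 fell, with the desaturase Scd1 at -2.04. Nerve genes gave 6 rises and 2 falls of 31, against 9.08% and 10.01% of all rows. Without control array 2 or resting array 1 there were 3 rises, about the share of all rows. Gap43 (0.85), a protein of growing axons, rose, and the myelin gene Mbp fell by 0.54 (adjusted p = 0.00288).

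Growth factor genes rose more often than they fell. In the BMP, TGF-beta and activin list 20 of 45 rose and 3 fell (median 0.38), with 13 rises without control array 3 or resting array 3. Fstl1 (2.09), the procollagen protease Bmp1 (1.30), Tgfb3 (1.28), the receptor Acvr1 (1.23) and the activin chain Inhba (1.14) rose, and Tgfb1 (-0.64) and Bmp6 (-0.84) fell. Of 44 FGF, PDGF, EGF and IGF genes 18 rose and none fell (median 0.32), and of 41 Wnt genes 12 rose and 2 fell (median 0.16). Of 22 clock genes 4 rose and none fell, against 9.08% and 10.01% of all rows. The risen genes were Npas2 (1.08), the repressors Bhlhe40 (0.95) and Nfil3 (0.63), and Rora (0.45). The rises numbered 3 when any 1 array other than resting array 3 was left out. In the t-test of the methods after adjustment 1 rose. When 1 array was left out, Rora lost its call (adjusted p 0.0738 without control array 1, 0.0501 without control array 2, 0.0707 without control array 3, 0.0757 without resting array 1 and 0.0715 without resting array 2). The core genes Per1 (0.17), Per2 (-0.34), Arntl (0.21), Nr1d1 (-0.25) and Dbp (-0.13) did not pass, at the single time of day sampled.

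Against the active group, the resting arrays showed no row past an adjusted p of 0.05 in limma (0 of 24367, with 1489 rows at an unadjusted p under 0.05). Correlations between resting and active arrays ran from 0.978 to 0.989. The list medians of resting minus active ran from -0.25 for adult muscle genes to 0.81 for erythroid genes, with 0.51 for neutrophil genes. The mean erythroid level was 7.93 to 8.24 in resting and 7.12 to 7.86 in active arrays, both below control. Tmem8c stood 4.63 and Myog 3.50 from control in the active group, beside 4.21 and 3.49 in the resting group. A p that misses the threshold in 3 against 3 arrays does not show that the times of dosing acted alike.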

How the data were processed

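RNA from the middle of the tibia was hybridised to GeneChip Mouse Gene 2.0 ST arrays (100 ng RNA, 9 arrays). The deposited values are log2 signals that the authors normalized in GeneSpring GX. Which algorithm and log base were used is not given in the sources used here, nor is the build, so the scale was taken as log2 from the values (array medians 6.34 to 6.40). Precision was limited by having 3 arrays a group.

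Groups came from the sample titles. limma 3.58.1 in R 4.3.3 (lmFit, eBayes) fitted all 9 arrays unpaired, with 6 residual degrees of freedom, and p-values were adjusted by Benjamini-Hochberg over all 24367 rows. The study's methods used an unpaired t-test with a 1.5-fold limit, a pairing that was not run here as such. The t-test was run with Benjamini-Hochberg adjustment and no fold limit. The 1.5-fold limit was set on the unadjusted p from limma. Further alternatives were other normalizations, a filter on the lowest 40% of rows, array weights and a replicate block. The table of 41345 probe sets and leaving out each array completed them.

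The 45 gene lists (1308 symbols, 1272 with a row) and the comparison itself were chosen with earlier results of these data known. Genes were named by rule: the 12 largest rises and falls, the 4 smallest p of each list, and all prostanoid and clock genes. The largest rises and falls were taken among genes past the threshold whose groups did not overlap. Predicted genes and immunoglobulin or T cell receptor segments were left out of that ranking. Other named genes, and the Dlk1 to Dio3 domain, were chosen after their values were seen. Some named genes are not reported here. Promoters and microRNAs came from RefSeq tables on GRCm38.p6 (250 bases before to 50 after a start).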

Additional observations from a re-analysis of the deposited data

How the results depend on the processing

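The main counts of 2213 rises and 2440 falls became 646 and 712 with a limit of 2-fold, and 891 and 1087 in the t-test of the methods after Benjamini-Hochberg adjustment, which estimates the spread of each row alone. Leaving out 1 array at a time gave 1520 to 2298 rises and 1742 to 2363 falls. Other settings stayed within 1.5 times of the main counts. Rises ran from 1772 (unadjusted p from limma under 0.05 and 1.5-fold) to 2825 (array weights). Falls ran from 1712 to 2956 under the same settings. Median centring gave 2017 and 2658, quantile normalization 2340 and 2480, and the table of probe sets gave 1903 and 2646.

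The replicate numbers are shared between groups but did not pair the samples: deviations of same-numbered resting and control arrays correlated at -0.03, -0.15 and 0.01. The resting and active columns carry other numbers in the table of probe sets, so all array numbers here are those of the gene-named table. With the number as a replicate block 2074 rows rose and 2326 fell.

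Of the 185 genes named for a large change or a small p (prostanoid and clock genes named only as list members left out), 177 passed the threshold. Over 2765 pairs of gene and setting, 2695 kept their side, 66 lost the call (45 of them in the t-test), 4 gained one and 0 changed sign while called. Those lost in the t-test included Ibsp, Ifitm5, Mia, Saa3, Serpina1d and Npas2. In that test 34 erythroid genes fell and 16 muscle regeneration genes rose, but 1 neutrophil and 1 cartilage gene fell and no osteoblast gene rose. Of 675 list medians, 613 moved by less than the SD between resting arrays. Dim rows, such as many microRNAs, have the least signal over background.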
